A study of Homo sapiens with 6 samples.

Results

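The genes described here are 37 genes of DNA replication and of the step from G1 into S phase, taken by gene name from the 20745 genes of one table of RNA sequencing results on human podocytes. All 37 names had a row in that table. The cells were AB 8/13, a conditionally immortalized human podocyte line that divides at a permissive temperature and was moved to a restrictive temperature for 7 to 10 days to differentiate. The samples were 3 control cultures and 3 cultures given levamisole at 1 µM over 24 h. The cultures are repeats of one line at different passages and not of several donors. The treatment label names serum-free culture for the controls only, while the treatment protocol given with the samples describes both groups as without serum. The paper's methods instead describe the controls as given vehicle in complete medium with serum.

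Before a cell divides it loads a ring of MCM proteins onto each origin of replication in G1, a step known as licensing. In S phase the ring is switched on by CDC45 and the GINS complex, polymerases copy the DNA behind it, and a sliding clamp, PCNA, holds the polymerases in place. Many of the genes for these proteins are targets of the E2F transcription factors, which the retinoblastoma protein holds back until cyclin D and cyclin E kinases release them. Podocytes, the cells that wrap the capillaries of the kidney's filter, are normally non-dividing, and conditionally immortalized lines are made to divide by a viral antigen that binds the retinoblastoma protein and p53 and is unstable at the restrictive temperature.

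The value described is the base mean, which is the authors' mean normalized read count of a gene over all libraries of their fit, both groups together. It therefore says how much RNA of a gene was counted, and nothing about levamisole against control. No value per culture was analysed, so no base mean has a replicate error and no difference between the groups was tested. The table also shows that the mean was not taken over 6 libraries of near equal depth. The 1714 genes with a base mean under 0.5 had 1714 different values, whereas 6 libraries of near equal depth can give at most 83 values up to that bound. The mean therefore covers further libraries or libraries of very unequal depth, and which of these holds cannot be told from the table. In bulk RNA, more cells in S phase and more RNA per cell cannot be told apart.

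Markers of dividing cells were present beside these genes. All 8 markers of G2 and mitosis (AURKB, CENPF, CCNB1, CDK1, TOP2A, MKI67, PLK1 and BUB1) had base means between 121 and 587, above the table's median of 21.8. Of 15 podocyte markers, 12 had a row and 7 of these were above the median. ACTN4, an actin crosslinker that many cell types make, had the highest base mean of the list (14320), and CD2AP, an adaptor at the slit diaphragm, had 929. MYO1E, KIRREL1, a protein of the slit diaphragm, and TJP1 followed with 356, 253 and 247. SYNPO (22.8) and PLA2R1 (21.8) were at about the median, and below it were NES (18.1), PODXL (15.3), the transcription factor WT1 (6.21) and the phosphatase PTPRO (0.333). NPHS1 and LMX1B were not analysed here. Of the endothelial markers 3 of 6 had a row and of the leukocyte markers 3 of 4, and 0 of these reached a base mean of 5. In the mesangial and tubular lists 1 gene each did, MCAM (782) and AQP1 (243).

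The replication and G1/S genes were among the well-counted genes of the table. Their base means ran from 17.3 (ORC1) to 3525 (TYMS), with a median of 223 beside a median of 21.8 over all genes. A base mean above the table's median was found for 36 of the 37 genes, with ORC1 as the exception, and 22 genes were above the upper quartile of 131. There were 12 genes above the table's 90th percentile of 401. Against the 14455 protein-coding genes of the table alone, whose median was 66.2, 28 of the 37 genes were above the median and 9 below it. Divided by the length of the transcript, 35 of the 37 genes were above the median of all genes, ORC1 and UHRF1 being the exceptions, and the median of the 37 was 86.9 per kb beside 8.45 per kb over all genes. Together the 37 genes took 0.299% of the summed base means, and TYMS, PCNA and MCM7 made up 41.3% of that share.

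**Figure D1:**
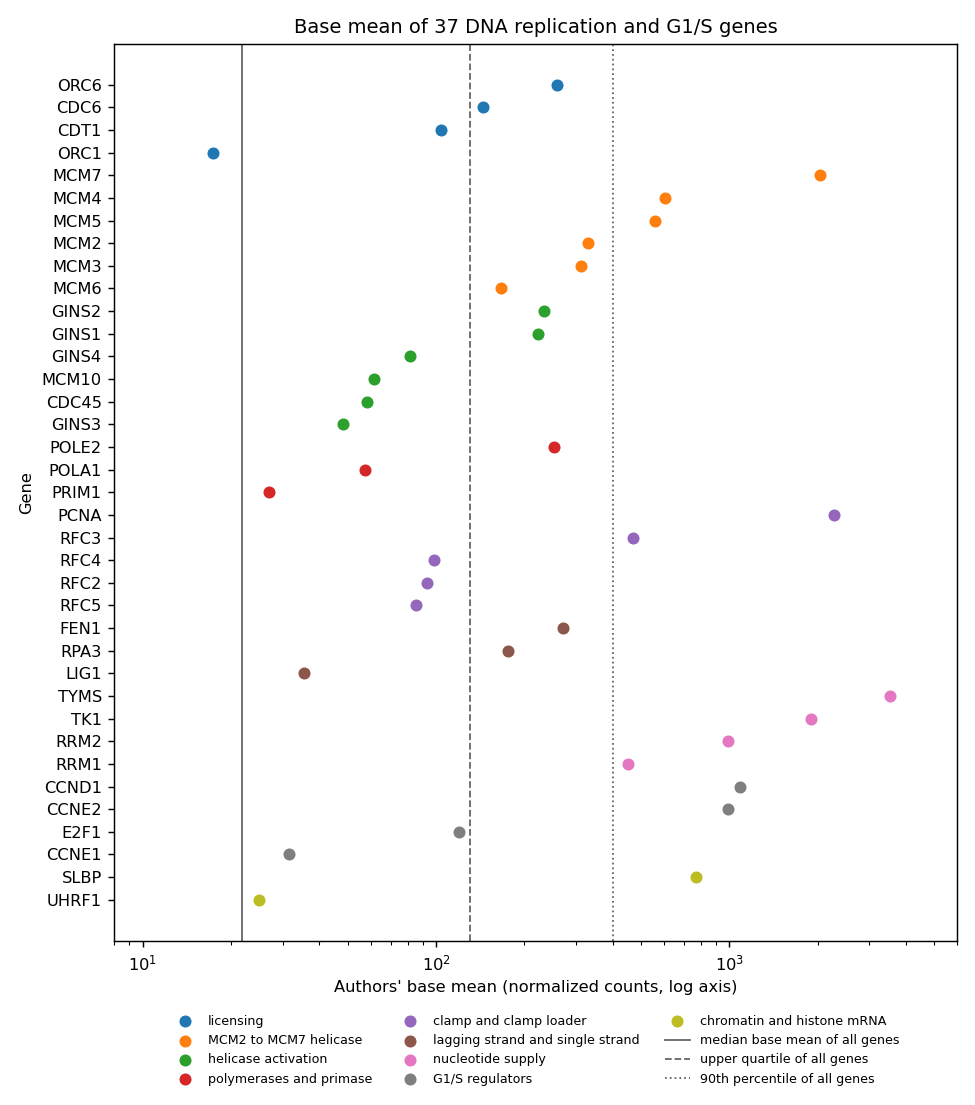
Base mean of each of the 37 genes (normalized counts, log axis), grouped by role and coloured by group, with lines at the median (21.8), the upper quartile (131) and the 90th percentile (401) of all 20745 genes. Each point is the authors' single mean over libraries, so no error can be drawn, and ORC1 is the only point left of the median line.

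Because longer transcripts can yield more reads, genes were set against each other by base mean per kb of transcript. Libraries followed an adapted form of CEL-seq, which reads mostly the 3′ ends of transcripts, so a value per kb gives short transcripts a higher place than the number of molecules would. Where subunits or partners set side by side changed order between the value per kb and the base mean as deposited, the base means are also given.

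The genes of nucleotide supply stood highest as a group, with a median of 818 per kb over 4 genes. TYMS, thymidylate synthase, which makes the thymidine nucleotide of DNA, had the highest value of all 37 genes on either scale (2185 per kb, base mean 3525). TK1, the thymidine kinase that salvages thymidine in dividing cells, reached 1332 per kb (base mean 1906), 30.6 times the value per kb of its mitochondrial counterpart TK2 and 9.08 times TK2 on base means as deposited. The value per kb of RRM2, the small subunit of ribonucleotide reductase that is limiting in S phase, was 305, against 144 for the large subunit RRM1, a ratio of 2.12 that was 2.20 on base means as deposited. RRM2B, the small subunit used outside S phase, had 83.0 per kb.

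The 6 genes of the MCM2 to MCM7 ring, whose proteins stand in equal numbers in the helicase, were not at equal RNA levels. MCM7 had 829 per kb (base mean 2044), 5.12 times the next subunit, a ratio of 3.38 as deposited and of 3.73 per kb of coding sequence. MCM5 had 162 per kb (base mean 560), MCM4 149 (base mean 605), MCM3 102 (base mean 313) and MCM2 96.5 (base mean 331). MCM6 was the lowest at 44.1 per kb (base mean 166), so the ring's genes spanned 18.8-fold per kb and 12.3-fold as deposited. MCM7 was the highest and MCM6 the lowest of the 6 on both scales and per kb of coding sequence. MCM4 and MCM5 changed places between the scales, as did MCM2 and MCM3, and with no replicate error the middle 4 subunits cannot be ordered. MCMBP, which binds MCM proteins outside the ring, had 41.7 per kb (base mean 176), below MCM6 per kb but above it as deposited.

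The genes that switch the ring on had a lower median than the ring itself, 26.4 per kb over 6 genes beside 126 per kb for MCM2 to MCM7, although GINS2 and GINS1 were above MCM6 on either scale. Among the 4 subunits of GINS, GINS2 had 88.7 per kb and GINS1 67.4, whereas GINS3 had 21.8 (base mean 48.0) and GINS4 21.6 (base mean 81.5). The spread over GINS was 4.10-fold per kb and 4.85-fold as deposited, with GINS2 highest on both. As deposited GINS2 (233) was close to GINS1 (223), and with no replicate error they cannot be ordered on that scale. CDC45, which travels with the ring and GINS, had 30.9 per kb (base mean 58.1). MCM10, which helps to activate the ring, had 13.5 per kb (base mean 61.6). The kinase CDC7 and its activator DBF4, which phosphorylate the ring, were at 19.0 and 13.2 per kb (base means 61.2 and 48.2).

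Licensing factors differed widely from each other. ORC1, the largest subunit of the origin recognition complex and one that is degraded after G1, was the lowest of the 37 genes on either scale, with a base mean of 17.3 and 5.54 per kb. ORC6, the smallest subunit, had a base mean of 258 and 160 per kb, which was 28.8 times ORC1 per kb and 14.9 times as deposited. The other ORC genes lay between them per kb, with ORC5 at 158, ORC3 at 97.0, ORC2 at 25.4 and ORC4 at 17.8. On base means as deposited ORC5 was above ORC6 (303 and 258) and ORC4 above ORC2 (117 and 109). CDC6 and CDT1, which bring the MCM ring to ORC, had 31.6 and 39.0 per kb, with base means of 144 and 104. The gene of geminin, GMNN, whose protein binds and blocks CDT1 after licensing, had 256 per kb, 6.56 times CDT1 per kb and 3.11 times as deposited.

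**Figure D2:**
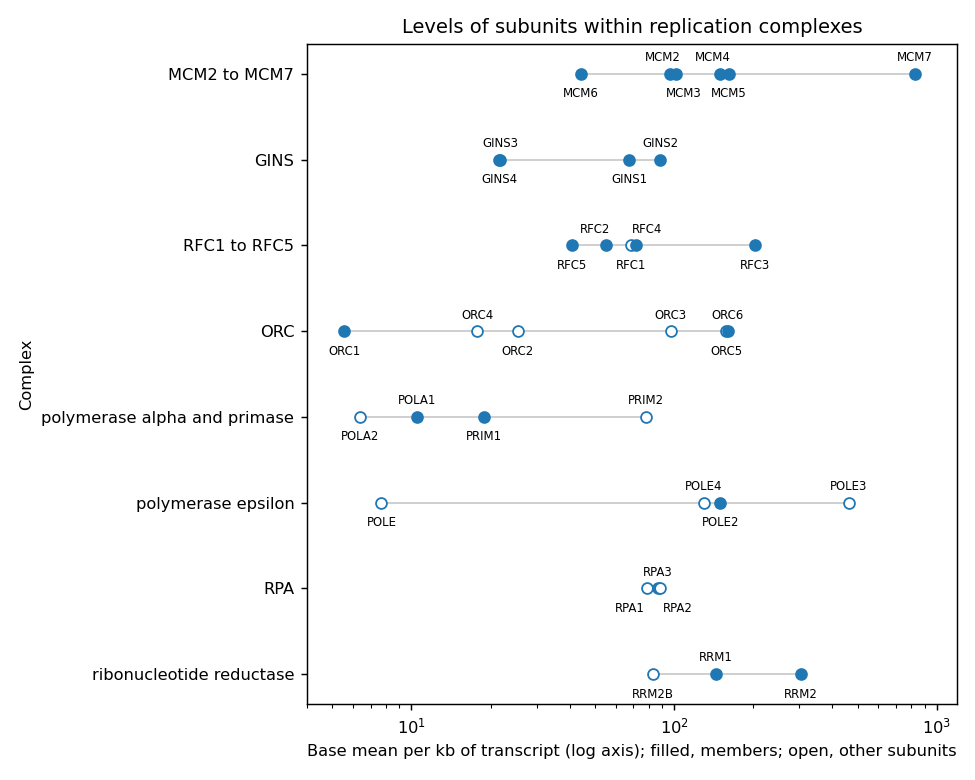
Base mean per kb of transcript (log axis) of the subunits of 8 replication complexes, 1 row per complex. Filled points are genes of the set of 37, open points are other subunits, and there are no error bars because each point is the authors' single mean. MCM7 stands at 829 apart from the other ring genes, ORC1 and ORC6 lie 28.8-fold apart, and the 3 RPA genes lie between 79.2 and 88.3.

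Among the polymerase genes, POLE2, a small subunit of the leading-strand polymerase epsilon, had 150 per kb (base mean 253). The catalytic subunit gene POLE had 7.68 per kb and the histone-fold subunits POLE3 and POLE4 had 462 and 130. POLE3 was 60.1 times POLE per kb and 16.9 times as deposited. POLA1, the catalytic subunit of polymerase alpha, had 10.5 per kb (base mean 57.4) and its partner POLA2 6.35. PRIM1, which synthesizes the RNA primer, had 18.9 per kb (base mean 26.9), and its partner PRIM2 had 78.0. The count of PRIM1 is uncertain, because 78.8% of its last 500 exonic bases are covered on the same strand by exons of other genes, NACA among them, and reads shared by 2 genes are left uncounted by default. PRIM1 was the only one of the 37 genes with such an overlap.

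PCNA, the sliding clamp, had the second place of all 37 genes on either scale (1783 per kb, base mean 2276). The loader that opens the clamp is built of RFC1 to RFC5. RFC3 had 203 per kb, RFC4 71.8, RFC1 68.7, RFC2 55.1 and RFC5 40.8, and as deposited RFC1 (335) was above RFC4 (98.1). RFC3 was the highest and RFC5 the lowest subunit on all scales, 4.98-fold apart per kb and 5.45-fold apart as deposited. RFC5 (85.7) and RFC2 (92.8) were close as deposited, and with no replicate error they cannot be ordered on that scale.

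On the lagging strand, FEN1, the nuclease that trims the flaps between fragments, had 135 per kb and LIG1, the ligase that joins them, had 11.3, a ratio of 11.9 that was 7.68 on base means as deposited. RPA3, the smallest subunit of the complex that coats single-stranded DNA, had 86.9 per kb, close to RPA2 (88.3) and RPA1 (79.2). On base means as deposited the 3 RPA genes were further apart, 2.75-fold, with RPA1 at 384, RPA3 at 176 and RPA2 at 140. Their near equality therefore depends on the division by length.

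The regulators of the step into S phase were divided between high and low genes. CCND1, cyclin D1, had 256 per kb (base mean 1085), beside 48.1 for CCND2 and 29.1 for CCND3. The base mean of CCNE2 was 992 and that of CCNE1, the other E-type cyclin, was 31.6, so CCNE2 was 31.4 times CCNE1 as deposited and 23.0 times per kb. Of the kinases they activate, CDK4 had 804 per kb (base mean 1499), CDK2 111 (base mean 249) and CDK6 44.4 (base mean 518). CDK4 was thus 18.1 times CDK6 per kb but 2.9 times as deposited. E2F1 had 44.7 per kb (base mean 120), and E2F3 had 56.3 (base mean 283), so E2F3 was 1.26 times E2F1 per kb and 2.36 times as deposited. The other activator of the family, E2F2, had a base mean of only 5.14. The values per kb of E2F4 to E2F8 ran from 4.46 for E2F8 to 66.0 for E2F4, and their base means from 16.5 for E2F8 to 154 for E2F7. TFDP1, the partner with which E2F proteins bind DNA, had 370 per kb (base mean 978) and TFDP2 13.6 (base mean 134).

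The retinoblastoma family and the kinase inhibitors were counted in the same libraries. RB1 had 70.8 per kb, RBL2 24.1 and RBL1 15.9. CDKN2A, which encodes p16 and ARF, had a base mean of 9702 and CDKN1A, which encodes p21, one of 8222, the highest of the 75 further genes of replication and G1/S that were looked at. Both exceeded every one of the 37 genes on either scale. CDKN1C had a base mean of 1019, CDKN2C 475, CDKN2B 308 and CDKN1B 244.

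UHRF1 and SLBP serve chromatin and histones during S phase. SLBP, which binds the stem-loop of histone mRNAs, had 425 per kb (base mean 769). UHRF1, which brings the maintenance methyltransferase to newly copied DNA, had 6.39 per kb (base mean 24.9), whereas that methyltransferase, DNMT1, had 744 per kb (base mean 3925), 116 times UHRF1 per kb and 158 times as deposited. Of the 75 further genes, 68 had a base mean above the table's median and their own median was 145. After CDKN2A and CDKN1A the highest were DNMT1 and ASF1B (3285), a histone chaperone. The lowest were POLD4 (4.75), E2F2 (5.14), POLD1 (8.18) and TICRR (13.9), and 65.4% of the 3′-most 500 exonic bases of POLD1, the catalytic subunit of polymerase delta, lie within a neighbour transcribed in the same direction.

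**Figure D3:**
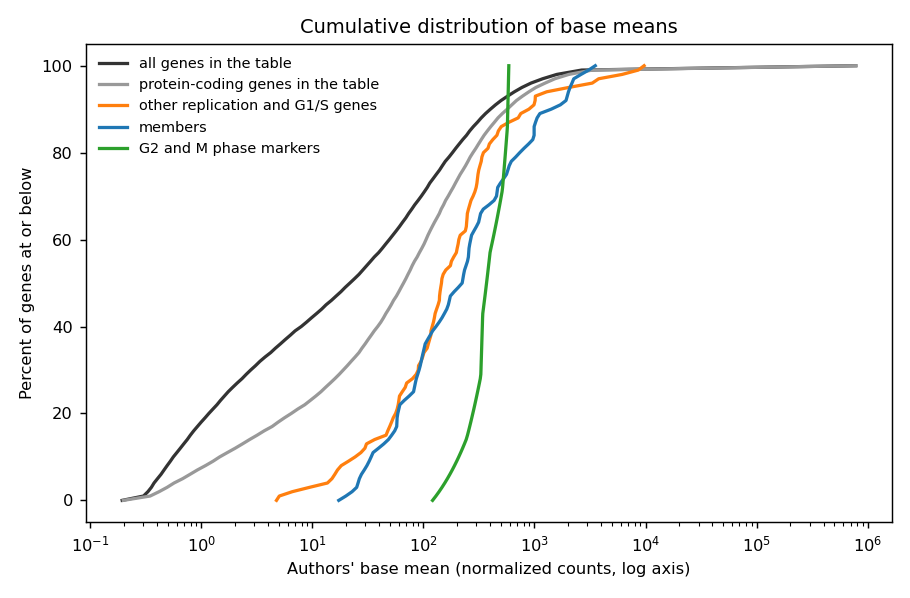
Cumulative percent of genes at or below each base mean (normalized counts, log axis) for all genes of the table, its protein-coding genes, the 37 members, 75 further replication and G1/S genes, and 8 markers of G2 and M phase. The curve of the members starts at 17.3 and crosses 50% at 223, whereas the curve of all genes crosses 50% at 21.8 and that of protein-coding genes at 66.2.

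The 37 genes lie on 19 chromosomes, with at most 4 on one of them, chromosome 16 (CDT1, GINS2, GINS3 and ORC6). On GRCh38, TYMS spans 657653 to 673578 on the plus strand of chromosome 18, MCM7 spans 100092233 to 100101940 on the minus strand of chromosome 7, PCNA spans 5114953 to 5126626 on the minus strand of chromosome 20, and ORC1 spans 52372829 to 52404423 on the minus strand of chromosome 1. The last 500 exonic bases of TYMS, MCM2, CCNE2 and GINS4 are wholly covered by a gene on the opposite strand, ENOSF1 in the case of TYMS and INTS8 in that of CCNE2, and those of CCND1 are covered over 50.6%. Counting with default settings uses the strand, which keeps such genes apart where the libraries carry it.

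The promoter sequences were not themselves used to choose the genes. Many genes of this kind are known E2F targets, so the share with an E2F motif is not independent of that choice. Promoter windows of 300 bases (250 before the transcription start and 50 after it, RefSeq, GRCh38.p14) were at hand for 31 of the 37 genes. The genes without one were CCND1, CCNE2, GINS4, MCM4, MCM5 and RPA3. The windows were searched on both strands for the 8-base E2F motif, spelled TTTCCCGC, TTTCGCGC, TTTGCCGC or TTTGGCGC. At least 1 match was found in 17 of the 31 windows (54.8%), beside 3.33% of 27305 windows of all genes and 4.44% of 15843 windows of protein-coding genes. The windows of all genes and of protein-coding genes were not limited to the 20745 genes counted in these cells. Among the 61 further replication and G1/S genes with a window the share was 24.6%. The windows of the members were richer in G and C, at a median of 67.3% beside 62.7% for protein-coding genes, and the part of base composition in these shares was not tested. Of 24 matches, 18 lay between 100 bases before the start and 30 bases after it. A match is a run of letters and not evidence that a factor binds there.

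The 160 bases before the start are shown for MCM6, which had the most matches, for E2F1, which had 2 matches and belongs to the family that binds them, and for TYMS and PCNA, which had the highest base means. Capitals mark the matches, and all sequences read 5′ to 3′ on the strand of the gene. The windows are chr2:135876444-135876603 (minus strand) for MCM6, chr20:33686386-33686545 (minus strand) for E2F1, chr18:657493-657652 (plus strand) for TYMS and chr20:5126623-5126782 (minus strand) for PCNA.
MCM6: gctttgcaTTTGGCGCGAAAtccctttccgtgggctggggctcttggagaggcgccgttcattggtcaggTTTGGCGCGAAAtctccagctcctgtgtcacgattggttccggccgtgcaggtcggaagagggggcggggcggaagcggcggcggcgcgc
E2F1: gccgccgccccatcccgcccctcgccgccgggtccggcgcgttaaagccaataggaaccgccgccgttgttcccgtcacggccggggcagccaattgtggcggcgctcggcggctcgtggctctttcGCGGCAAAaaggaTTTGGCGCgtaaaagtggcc
TYMS: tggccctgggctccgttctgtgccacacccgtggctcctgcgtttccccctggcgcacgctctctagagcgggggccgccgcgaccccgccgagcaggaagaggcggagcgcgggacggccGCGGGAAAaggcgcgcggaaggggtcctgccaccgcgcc
PCNA: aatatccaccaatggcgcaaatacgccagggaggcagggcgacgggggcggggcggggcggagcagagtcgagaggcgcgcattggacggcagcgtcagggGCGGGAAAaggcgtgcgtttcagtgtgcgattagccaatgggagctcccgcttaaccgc

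In MCM6 the 4 matches form 2 blocks, each of a pair of matches that overlap on opposite strands. In TYMS and PCNA the single match lay on the strand opposite to the gene, 39 and 59 bases before the start. MCM6, with 4 matches, had the lowest base mean of its ring, and MCM7, with 2 matches, had the highest. No match was found in the windows of TK1 and RRM2, which were among the highest genes. Whether matches go with base means was not tested. The genes with 2 or more matches were E2F1, MCM2, MCM3, MCM6 and MCM7, and 14 of the 31 windows had none. The absence of these letters says nothing about sites outside the window.

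**Figure D4:**
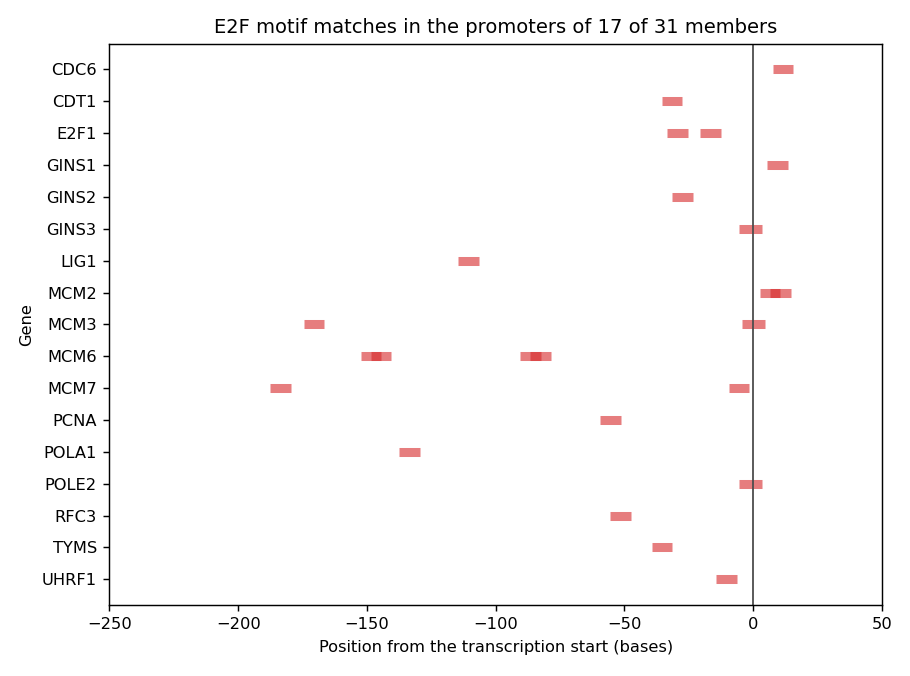
Positions of E2F motif matches in the promoter windows of the 17 members that had any, as bars of 8 bases against distance from the transcription start in bases, with darker red where matches overlap. MCM6 shows 2 overlapping pairs, and 18 of all 24 matches lie between 100 bases before the start and 30 after it.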

How the data were processed

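Adapted CEL-seq libraries of 3 control and 3 levamisole-treated cultures were sequenced. Per the paper's methods and the submitters' processing notes, the authors trimmed reads with Trim Galore 0.4.5, mapped them to GRCh38 with STAR 2.7.5a, counted them with HTSeq 0.11.0 on Ensembl 95 and fitted DESeq2 1.22.0. The methods also describe a second route, with BWA MEM mapping and RPM normalization, and a minimum read count per sample and gene. Genes with a base mean under 0.5 remain in the table, so that minimum was not applied to its rows. The one table used here holds a base mean, deposited by the authors as a signal in normalized counts averaged over libraries. Its 5 other value columns hold the authors' own comparison (log2 fold change, standard error, statistic, p-value and adjusted p-value) and were not used. With no value per culture, depth and precision per sample are unknown and no test was run.

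Percentiles, ratios and base means per kb (length of the Ensembl canonical transcript, GENCODE 44, found for 20599 of 20745 genes) were computed with Python 3.11.15, pandas 2.3.3 and NumPy 2.4.6, and figures with matplotlib 3.10.9. Where RefSeq lists several starts, the first was used. The motif search was tested on simulated sequences of A and T with planted motifs. This checks that planted matches are found, but not how often matches arise in windows rich in G and C. Members and lists were chosen with earlier results of these data known. All 37 members are named, with the 4 highest and 4 lowest of 75 further genes, and subunits, partners and inhibitors of members. Some genes of these lists are not reported here.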

Additional observations from a re-analysis of the deposited data

How the results depend on the processing

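No paired analysis was possible because the table used holds no value per culture, and for the same reason no culture could be left out. The count of 36 genes above the median became 32 when a base mean of 1 or more was required of all genes, 27 at a minimum of 5 and 28 among protein-coding genes, and the 68 further genes became 54 at a minimum of 5. The members' median of 223 became 229 on the scale per kb set to the median of all genes with a length. The span from the highest to the lowest subunit, per kb of transcript, as deposited and per kb of coding sequence, was 18.8-fold, 12.3-fold and 14.1-fold for MCM2 to MCM7, 4.10-fold, 4.85-fold and 5.66-fold for GINS, and 4.98-fold, 5.45-fold and 5.21-fold for RFC2 to RFC5. The lowest GINS subunit was GINS4 per kb of transcript and GINS3 on the other scales. Without mitochondrial genes, which took 34.8% of the summed base means, the members' share rose from 0.299% to 0.459%. The 17 windows with an E2F motif became 23 with a 7-base core and 11 within the 150 bases before the start, while any listed start of a gene, an alternative chosen after seeing the data, also gave 17.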

Other observations

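A second motif, CCAAT on either strand, was looked at after the E2F matches had been seen. It stood in 18 of the 31 promoter windows of the members (58.1%), beside 35.7% of all windows and 36.4% of windows of protein-coding genes. Among the 61 windows of further replication and G1/S genes the share was 42.6%. CDC45 had 4 matches, the most of the members, and 0 matches of the E2F motif.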
